A study of Homo sapiens with 6 samples.

Results

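The genes described here are 52 genes of DNA replication licensing and S phase, taken by symbol from the table of read counts. They comprise E2F transcription factors, cyclin E and its kinase, origin licensing factors, replicative helicase and replication fork proteins, enzymes of nucleotide supply and proteins that build chromatin on new DNA. Each of the 52 symbols had 1 row among the 32943 genes of the table, all were annotated as protein-coding, and all 52 passed the filter on low counts. The cells were labelled AGS, the name of a line from a human gastric adenocarcinoma, and their RNA was sequenced in 2 groups of 3 libraries. Both groups were transfected with Lipofectamine 3000 and harvested after 48 h, the control group with a control plasmid and the overexpression group with pcDNA3.1-3xFlag-IGF2BP3. Both groups share the transfection itself. Transient transfection usually reaches only a part of the cells in a dish, and each value is an average over all of them.

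DNA replication is prepared in G1, when the origin recognition complex, CDC6 and CDT1 load the MCM2-7 helicase onto DNA, a step called licensing. Cyclin E with CDK2 and the kinase that acts with DBF4 then start S phase, in which CDC45 and the GINS complex turn the loaded helicase on, and geminin, encoded by GMNN, blocks CDT1 so that no origin is licensed again. Many of these genes are transcribed together at the G1/S transition by E2F factors, which are held back by RB-family proteins until cyclin-dependent kinases release them. IGF2BP3 is an RNA-binding protein that binds mRNAs and affects their stability and translation, and in proliferating tumour cells such as those of gastric adenocarcinoma the replication genes are usually abundant.

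The libraries held 33555366 to 37633587 counts. IGF2BP3 itself was at 90.6, 102 and 100.2 CPM (counts scaled to library size with TMM factors) in the controls and at 511, 573 and 664 CPM with overexpression. The overexpression libraries all lay above the controls, with means of 97.6 ± 6.22 and 583 ± 76.9 CPM (SD, n = 3 each) and a log2 fold change of 2.58 ± 0.08 (SE, edgeR adjusted p = 1.278e-08). Control replicate 1 and overexpression replicate 3 stood apart from the other libraries of their groups. A chi-square of the counts, divided by the number of genes, came to 9.30 and 8.74 for control replicate 1 against the other controls and to 2.04 between those. For overexpression replicate 3 against its group it came to 7.58 and 7.99, and to 2.48 between the other 2. The labelled tissue was poorly represented among its markers. Of 12 gastric epithelial markers 11 were under 1 CPM in every library, 3 of them without a row in the table, and the most abundant were PGC, at a mean of 3.87 CPM in controls, and TFF1, at 0.637 CPM. General epithelial markers were high, led by KRT8 (5097 CPM) and KRT18 (3802 CPM). All 12 liver cell markers were detected, led by ALB at 1512 CPM and FGB at 998 CPM in controls. The libraries are therefore called by their labels only.

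With IGF2BP3 overexpression 23 of the 52 genes fell, 1 rose and 28 did not pass the threshold (edgeR quasi-likelihood test, adjusted p under 0.05 over the 17747 genes tested). Of all genes tested, 19.2% were called lower and 18.5% higher, 37.7% in either direction. Of the 9562 genes with a mean of at least 10 CPM, where 51 of the 52 genes lie, 22.1% were called lower and 28.8% higher. The median log2 fold change was −0.16 over the 52 genes and −0.01 over all genes tested. The falls were small, from −0.16 to −0.66 on the log2 scale with a median of −0.25, which left a median of 83.9% of the control level, and 7 genes fell below 80% of it. Only TK1 passed with a fold of at least 1.5, as 7.14% of all genes did in the lower direction. TK1, LIG1, E2F1, POLD1, GINS4, MCM3 and GMNN fell by 0.34 or more on the log2 scale. The only rise was RPA2, a subunit of the protein that coats single-stranded DNA.

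The overexpression libraries lay below all controls for each of the 23 genes that fell, and for a further 9 genes that did not pass. They lay above all controls for RPA2 and for 3 genes that did not pass, and the ranges overlapped for 16. Among all genes tested the groups did not overlap, with overexpression lower, for 25.4%, and with overexpression higher for 25.3%. Summed over the 52 genes, the level was 5696, 5667 and 5696 CPM in the controls and 5159, 5158 and 5017 CPM with overexpression. Overexpression replicate 3 gave the lowest sum and was the lowest of the 6 libraries for 14 of the 23 genes that fell. Without control replicate 1 and overexpression replicate 3, there were 28 falls and 1 rise, with a median of −0.13. Of all genes, 19.5% were then called lower and 19.4% higher. On the deposited FPKM values (limma on log2(FPKM + 1)) 12 of the 52 fell and 3 rose, and over all genes 2453 fell and 3416 rose, where counts gave 3410 and 3288.

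**Figure D1:**
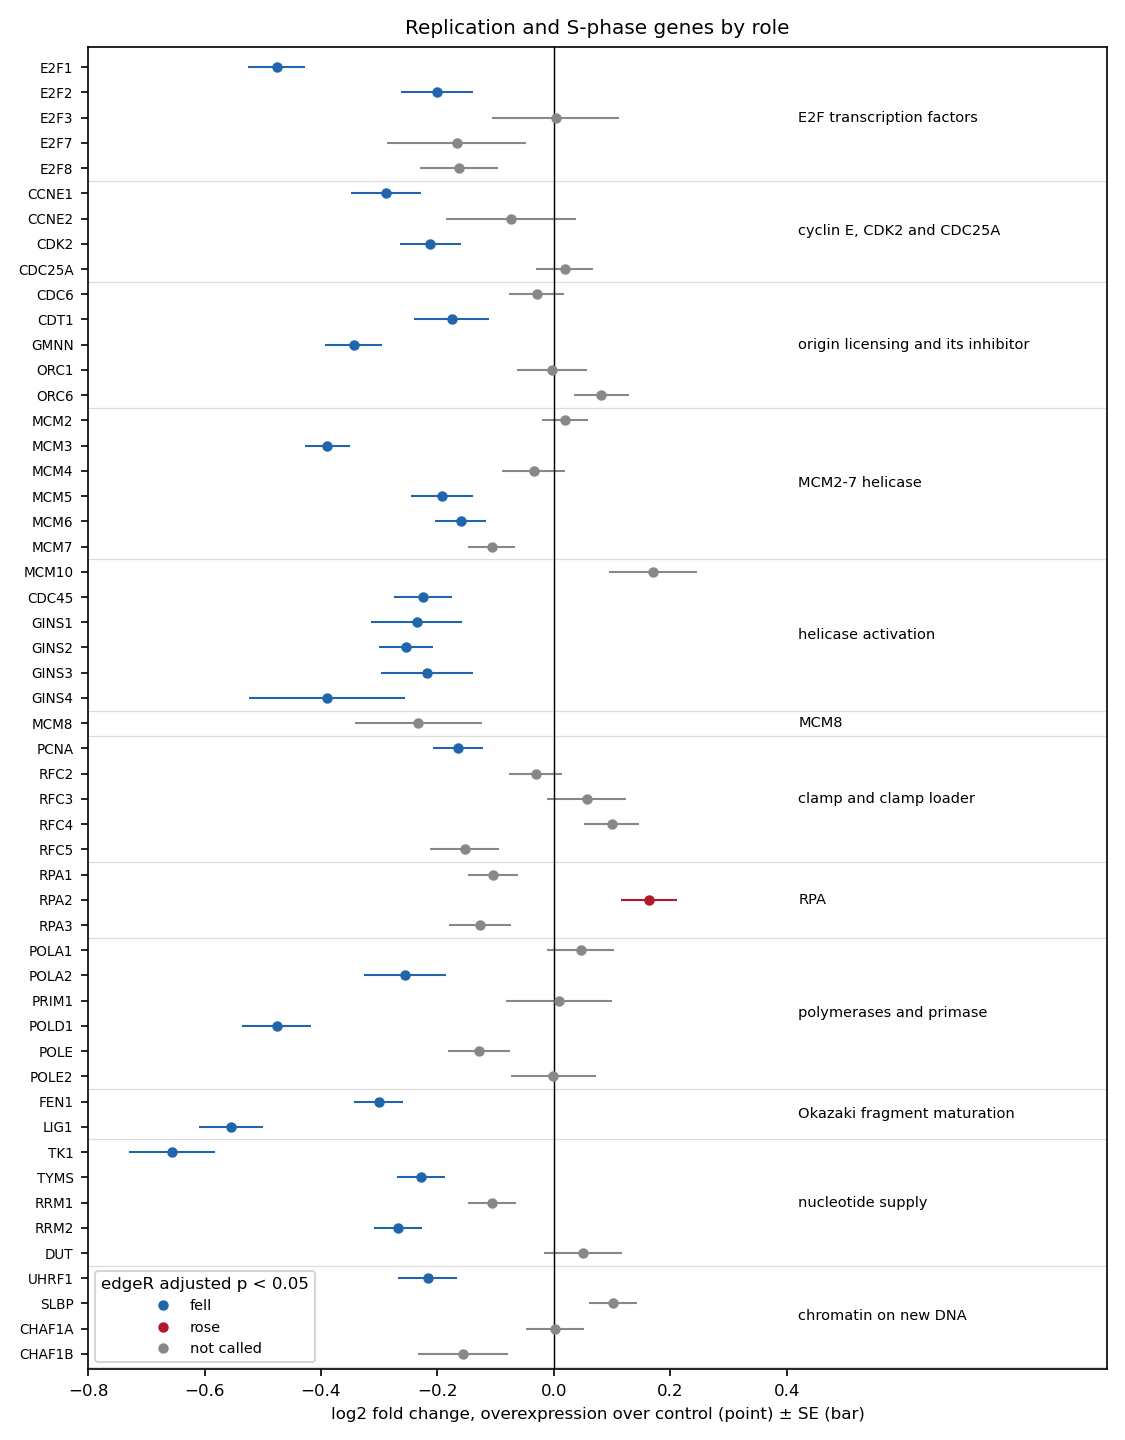
Log2 fold change of each of the 52 genes, overexpression over control, with its standard error, grouped by role. Blue points passed the threshold as lower (23 genes), the red point passed as higher (RPA2), and grey points did not pass (28 genes).

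The mitochondrial share of counts and the summed liver, fibroblast, leukocyte and gastric markers moved with the groups. Mitochondrially encoded genes took 6.54, 6.203 and 6.15% of counts in the controls and 5.28, 5.28 and 5.03% with overexpression, without overlap. With these genes and IGF2BP3 left out of the scaling, 23 of the 52 genes fell and 1 rose. Of all genes, 19.2% were then called lower and 18.5% higher. Of the 12 liver cell markers 12 fell, and their summed level was 4364 to 4603 CPM in controls and 2633 to 2942 CPM with overexpression. Of 6 fibroblast markers 4 fell, with sums of 210.2 to 220.4 and 120.6 to 134.7 CPM, led by LUM and COL1A2. Leukocyte markers summed to 11.1 to 12.5 and 7.28 to 8.87 CPM, nearly all of it LYZ. The other 4 of the 5, CD68, which was next, and PTPRC and CD3E among them, were under 1 CPM throughout. Endothelial markers, led by PECAM1 and VWF, stayed under 1 CPM in sum in each library. The gastric epithelial markers summed to 4.35 to 5.99 and 1.56 to 1.89 CPM, led by PGC (means of 3.87 and 1.04 CPM). Of 5 general epithelial markers 2 fell, with overlapping sums of 9782 to 10255 and 8865 to 10240 CPM. KRT8 and KRT18 made up most of these sums and did not pass. The 2 that fell, both without overlap, were CDH1 (means of 125 and 84.7 CPM) and EPCAM (257 and 229 CPM). The part of these shifts in the falls of the replication genes was not tested. In bulk RNA, fewer cells in S phase and less RNA per cell cannot be told apart.

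**Figure D2:**
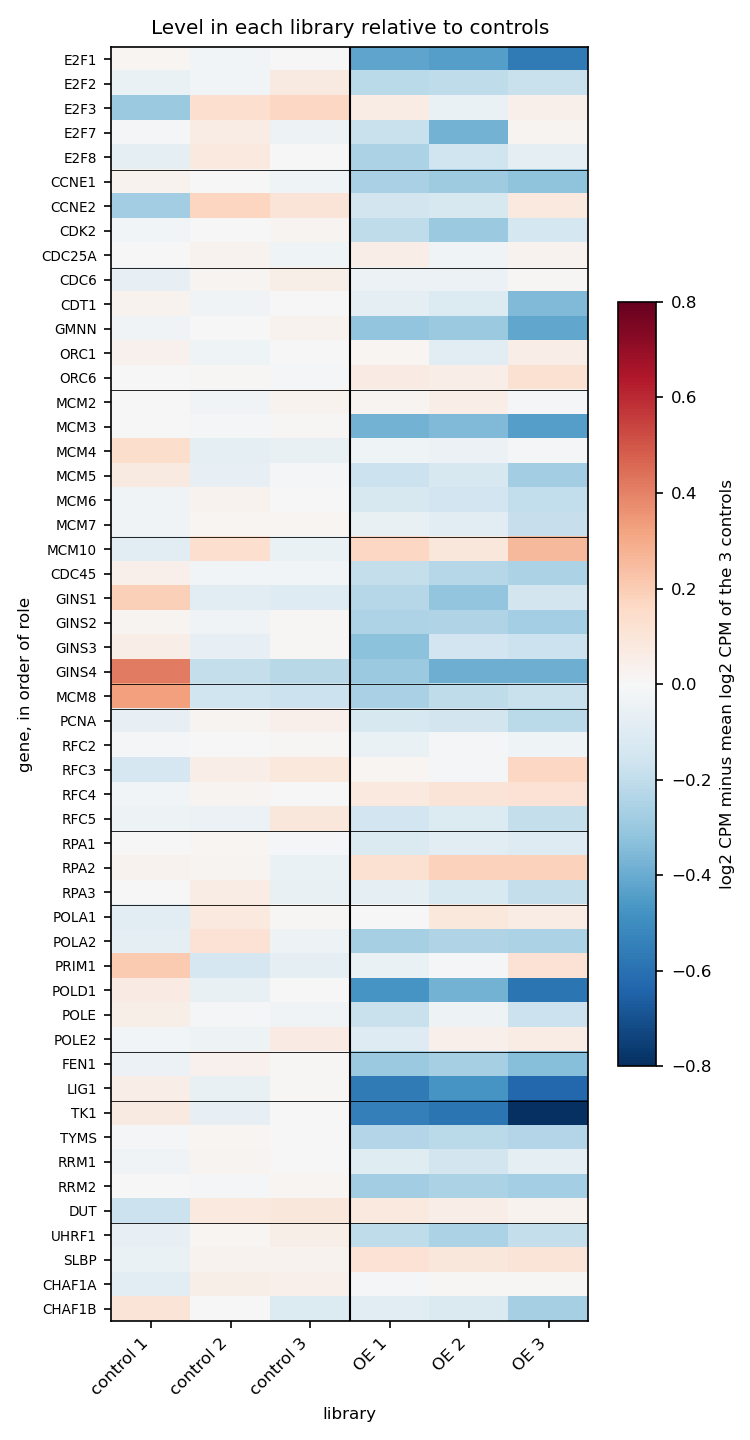
Level of each gene in each library as log2 CPM minus the mean log2 CPM of the 3 control libraries, genes in order of role and libraries in columns (OE, overexpression). The blue cells of the overexpression columns follow E2F1, GMNN, MCM3, POLD1, LIG1 and TK1, while control replicate 1 stands above the other controls for GINS4, GINS1 and MCM8.

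Short words that E2F factors are known to recognise were searched for in the promoters. RefSeq promoter windows (GRCh38.p14), 250 bases before to 50 after an annotated start, were present for 44 of the 52 genes, in 59 windows. For 48 of these windows a GENCODE 29 transcript of the same gene began, by sequence, at or near the annotated start. They were searched on both strands for TTTCCCGC, TTTGGCGC, TTTCGCGC and TTTGCCGC. Of the 44 genes 25 (56.8%) had at least 1 of these words. Of the 10887 genes tested that had a coding transcript and such a window, 6.49% had one. The words were in 14 of 20 genes that fell (70%) and 11 of 24 that did not pass (45.8%). CCAAT, the NF-Y word, was in 61.4% of the 44 genes and 43.2% of those 10887 genes. GGGCGG, the GC box bound by SP factors, was in 79.5% and 75.9%. TTTGAA or TTCGAA, the CHR word of many mitotic genes, was in 9.09% and 15.7%. In MCM6 and MCM2 a word on one strand overlaps a word on the other by 4 bases, and a gene was counted once. A match is a description of the letters and not of binding, and no difference between these shares was tested.

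The 130 bases before the start of 7 genes are printed below, in lower case with the E2F words and CCAAT words (either strand) in capitals, because they show the same words in genes that fell and in genes that did not pass. E2F1, E2F2, GMNN and PCNA fell, and E2F3, CDC25A and POLE did not pass.
E2F1 (chr20:33686386-33686515, minus strand): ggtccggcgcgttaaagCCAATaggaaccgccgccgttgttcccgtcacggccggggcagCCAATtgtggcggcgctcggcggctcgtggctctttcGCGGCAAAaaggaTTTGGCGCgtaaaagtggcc
E2F2 (chr1:23531234-23531363, minus strand): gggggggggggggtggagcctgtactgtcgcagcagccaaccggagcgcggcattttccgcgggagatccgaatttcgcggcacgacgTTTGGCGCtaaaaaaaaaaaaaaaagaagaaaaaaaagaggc
GMNN (chr6:24775283-24775412, plus strand): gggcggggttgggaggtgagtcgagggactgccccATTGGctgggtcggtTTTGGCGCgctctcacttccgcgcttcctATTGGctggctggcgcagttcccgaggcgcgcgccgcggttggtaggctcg
PCNA (chr20:5126623-5126752, minus strand): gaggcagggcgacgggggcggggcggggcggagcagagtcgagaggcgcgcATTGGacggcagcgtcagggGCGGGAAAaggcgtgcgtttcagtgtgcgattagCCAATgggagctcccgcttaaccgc
E2F3 (chr6:20401749-20401878, plus strand): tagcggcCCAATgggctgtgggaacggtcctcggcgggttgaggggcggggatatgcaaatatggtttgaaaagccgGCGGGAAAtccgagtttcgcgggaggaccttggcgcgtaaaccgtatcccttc
CDC25A (chr3:48188418-48188547, minus strand): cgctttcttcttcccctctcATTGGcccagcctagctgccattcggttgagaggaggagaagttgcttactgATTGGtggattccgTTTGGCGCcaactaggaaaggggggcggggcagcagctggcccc
POLE (chr12:132687343-132687472, minus strand): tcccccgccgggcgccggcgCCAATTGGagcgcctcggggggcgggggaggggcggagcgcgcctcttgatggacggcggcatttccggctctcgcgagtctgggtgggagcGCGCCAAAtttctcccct
E2F1 has 2 E2F words close to its RefSeq start, GCGGCAAA and TTTGGCGC. TTTGGCGC also stands in E2F2, GMNN and CDC25A, and POLE has it on the other strand, as GCGCCAAA. PCNA and E2F3 share GCGGGAAA.

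**Figure D3:**
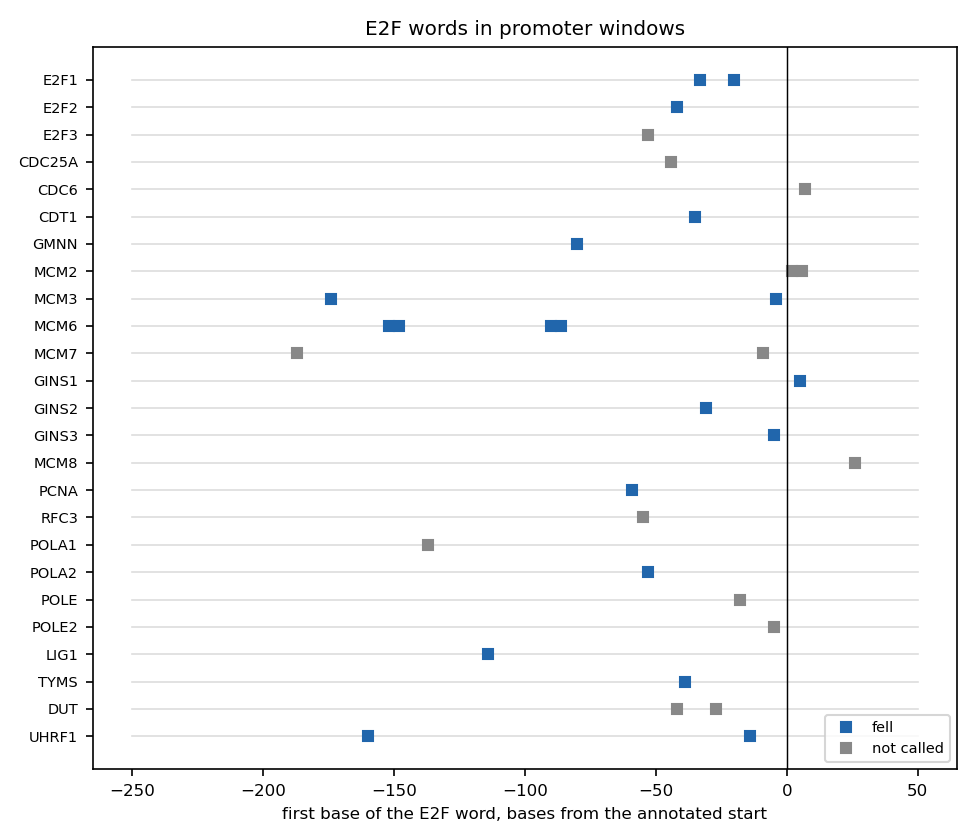
Position of each E2F word in the promoter windows of the 25 genes that have one, as the distance in bases of its first base from the annotated start. Blue squares mark genes that fell and grey squares genes that did not pass, and both kinds of gene have words within the 59 bases before the start.

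Of the 5 E2F genes 2 fell. E2F1, an activator of S-phase transcription (chromosome 20, 33675683 to 33686404, minus strand, GRCh38), was at 129, 125 and 127 CPM in the controls and 94.8, 93.5 and 85.8 CPM with overexpression. Each overexpression library lay well below each control, a log2 fold change of −0.48 ± 0.05 (edgeR adjusted p = 2.16e-05). E2F2, a second activator, was at 25.9, 26.4 and 28.1 CPM and at 23.1, 23.2 and 23.7 CPM (−0.20 ± 0.06, adjusted p = 0.023), a call that was lost without control replicate 2 or 3 or overexpression replicate 1 or 2 (adjusted p = 0.051 to 0.11). E2F3, the third activator, overlapped at 12.9, 17.4 and 17.8 against 16.5, 15.3 and 16.4 CPM (0.00 ± 0.11), with control replicate 1 lowest. The E2F7 and E2F8 genes, which encode atypical repressors of the same targets, did not pass (−0.17 ± 0.12 and −0.16 ± 0.07). With control replicate 1 left out E2F8 was called lower (−0.20, adjusted p = 0.034), as it was with overexpression replicate 3 left out (−0.21, adjusted p = 0.042). Per length, E2F1 was the most abundant of the 5 at a mean of 39.4 FPKM in controls, against 0.810 to 6.46 FPKM for the other 4.

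Of the cyclin E and CDK2 genes, CCNE1 fell and CCNE2 did not pass. CCNE1 was at 27.4, 27.0 and 26.3 CPM in controls and 22.5, 22.1 and 21.5 CPM with overexpression, with no overlap (−0.29 ± 0.06, edgeR adjusted p = 0.0027). CCNE2, whose exons overlap INTS8 on the opposite strand and whose reads are therefore uncertain, was at 12.3, 16.8 and 16.1 against 13.5, 13.7 and 15.8 CPM (−0.07 ± 0.11). Without control replicate 1 and overexpression replicate 3 it was called lower (−0.28, adjusted p = 0.00604). CDK2, the kinase, fell from 71.4, 72.7 and 73.7 to 63.0, 59.2 and 65.7 CPM (−0.21 ± 0.05). CDC25A, the phosphatase that activates CDK2, overlapped between the groups at 53.7 to 57.1 CPM over the 6 libraries (0.02 ± 0.05, 95% interval −0.09 to 0.13).

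Of 5 origin licensing genes 2 fell, the inhibitor GMNN and CDT1. GMNN was at 109, 112 and 114 CPM in controls and 89.6, 90.7 and 83.6 CPM with overexpression (−0.34 ± 0.05, edgeR adjusted p = 0.000183). CDT1, the loader that geminin blocks, was at 146, 140.2 and 143 CPM and at 135, 133 and 112 CPM (−0.18 ± 0.06, adjusted p = 0.049). Overexpression replicate 3 was the lowest library for CDT1, and without it the change was −0.09 (adjusted p = 0.103). The call was also lost without any 1 of the controls or without overexpression replicate 2. CDC6, the ATPase that loads the helicase with CDT1, overlapped at 104 to 113 and 105 to 109.7 CPM (−0.03 ± 0.05, 95% interval −0.13 to 0.07). ORC1 (0.00 ± 0.06) and ORC6 (0.08 ± 0.05), subunits of the origin recognition complex, did not pass either, although all 3 overexpression libraries held more ORC6 than any control.

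Of the 6 subunits of the MCM2-7 helicase, which form a ring with 1 copy of each, 3 fell, by different amounts. MCM3 (chromosome 6, 52264009 to 52284881, minus strand) was at 425, 422 and 426 CPM in controls and 326, 333 and 313 CPM with overexpression. The groups were far apart beside their spread (−0.39 ± 0.04, edgeR adjusted p = 1.46e-05). MCM5 fell from 156, 142 and 147 to 132, 136 and 122 CPM (−0.19 ± 0.05) and MCM6 from 111, 115 and 113 to 103, 101 and 98.8 CPM (−0.16 ± 0.04), though MCM6 lost its call without control replicate 2 or 3. MCM7, whose gene hosts a cluster of miRNAs, was at 785, 809 and 810.5 against 770.0, 757 and 706 CPM, lower in each overexpression library but just short of the threshold (−0.11 ± 0.04, adjusted p = 0.052). It passed when control replicate 1 was left out (−0.12, adjusted p = 0.0428). MCM2 overlapped at 214, 210.4 and 219 against 218, 222 and 212 CPM (0.02 ± 0.04, 95% interval −0.07 to 0.11), and its exons overlap TPRA1 on the opposite strand. MCM4 overlapped too, with control replicate 1 at 409 CPM and the other 5 libraries between 350.4 and 366 CPM (−0.03 ± 0.05). Per length the controls held 152 FPKM of MCM7, 97.0 of MCM3, 44.3 of MCM4, 37.9 of MCM2, 22.8 of MCM6 and 17.0 of MCM5.

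The ratio of MCM3 to the other subunits does not depend on how libraries are scaled. The log2 ratio of MCM3 counts to the geometric mean of the other 5 was 0.71, 0.75 and 0.75 in the controls and 0.43, 0.46 and 0.44 with overexpression. The groups did not overlap and differed by −0.30, with overexpression lower (exact permutation test, two-sided, p = 0.1, the smallest that 3 against 3 libraries allow). Of 8 such ratios 5 had groups without overlap, each with p = 0.1 by the exact permutation test and 0.16 after adjustment over the 8, so none could pass. CDT1 over GMNN was higher with overexpression by 0.16 on the log2 scale, and FEN1 over LIG1 by 0.25. E2F1 over E2F3 differed by −0.49, with control replicate 1 at 3.32 and the other controls at 2.85 and 2.84, and RRM2 over RRM1 by −0.16. E2F1 over E2F7 (−0.30), CCNE1 over CCNE2 (−0.22) and POLE2 over POLE (0.13) overlapped. The ratios with FEN1 and CCNE2 are uncertain, since exons of these genes overlap those of other genes.

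**Figure D4:**
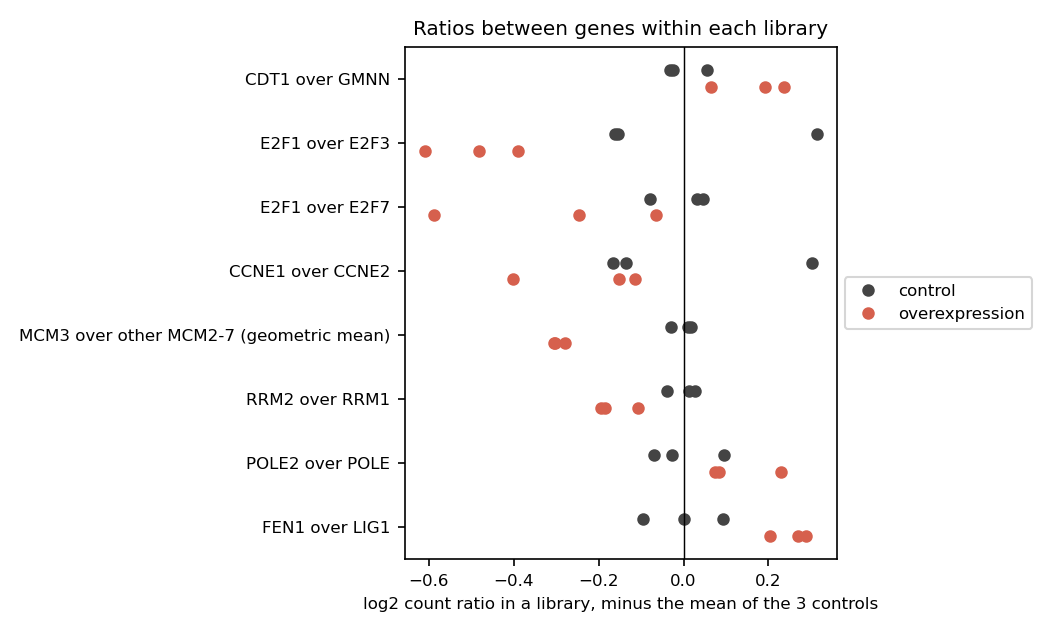
Log2 ratio of the counts of paired genes within each library, minus the mean of the 3 controls, for 8 ratios. The 3 overexpression libraries lie to the left of all controls for MCM3 over the other subunits, E2F1 over E2F3 and RRM2 over RRM1. They lie to the right for CDT1 over GMNN and FEN1 over LIG1. FEN1 and CCNE2 are uncertain for their overlaps with other genes.

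Of 6 helicase activation genes 5 fell. CDC45, part of the active helicase, was at 58.6, 56.2 and 56.0 CPM in controls and 49.8, 48.6 and 47.8 CPM with overexpression (−0.22 ± 0.05, edgeR adjusted p = 0.0036). All 4 genes of the GINS complex, which joins CDC45 to the MCM ring, were lower in each overexpression library. GINS2 fell from 82.4, 79.6 and 81.9 to 68.5, 68.8 and 67.2 CPM (−0.25 ± 0.05). Its exons overlap GSE1 on the opposite strand and its reads are uncertain. GINS4 was at 66.8, 43.8 and 42.9 CPM in controls and 40.8, 38.2 and 38.2 CPM with overexpression, so control replicate 1 set most of its change (−0.39 ± 0.13, and −0.15 with adjusted p = 0.0634 without that library). Its call was also lost without any 1 overexpression library. GINS1 shared this pattern at 73.3, 60.2 and 59.8 against 54.7, 51.6 and 57.9 CPM (−0.24 ± 0.08, and −0.13 with adjusted p = 0.0990 without control replicate 1), and lost its call without overexpression replicate 1 or 2 as well. GINS3, the least abundant per length at 2.39 FPKM in controls, was at 15.2, 14.0 and 14.7 against 11.7, 13.2 and 12.97 CPM (−0.22 ± 0.08, adjusted p = 0.046), and lost its call when any single library was left out. MCM10, which helps the activated helicase leave the origin, went the other way without passing (21.9, 25.4 and 22.3 against 26.0, 24.6 and 27.7 CPM, 0.17 ± 0.08). MCM8, a helicase of recombination repair, did not pass (−0.23 ± 0.11, and −0.05 without control replicate 1, which stood at 59.4 CPM beside 42.4 and 42.0).

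At the fork, PCNA fell and its loader subunits did not pass. PCNA, the sliding clamp and the most abundant of the 52 genes per length at 192 FPKM in controls, fell from 309, 327 and 333 to 295, 291 and 278 CPM (−0.16 ± 0.04, edgeR adjusted p = 0.0097). Without control replicate 3 the adjusted p was 0.060. Of the 4 loader subunits RFC2 and RFC5 were lower in each overexpression library (−0.03 ± 0.05 and −0.15 ± 0.06), RFC4 was higher in each (0.10 ± 0.05) and RFC3 overlapped (0.06 ± 0.07). RFC4 lies across EIF4A2 and RFC5 across WSB2 on the opposite strand, both more abundant in counts, so these values are uncertain. Of the 3 subunits of RPA, RPA2 rose from 84.5, 83.9 and 79.7 to 89.8, 94.0 and 93.9 CPM (0.16 ± 0.05, adjusted p = 0.018), while RPA1 (−0.10 ± 0.04) and RPA3 (−0.13 ± 0.05) did not pass and were lower in each overexpression library. RPA1 and RPA3 share exon sequence with SMYD4 and UMAD1 on the opposite strand. The rise of RPA2 was not called with control replicate 3 (adjusted p = 0.0915) or overexpression replicate 2 (adjusted p = 0.0589) left out.

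Of 6 polymerase and primase genes POLD1 and POLA2 fell. POLD1, the catalytic subunit of polymerase delta, which copies the lagging strand (chromosome 19, 50384204 to 50418016, plus strand), was at 102, 93.4 and 97.3 CPM in controls and 70.3, 74.9 and 65.1 CPM with overexpression (−0.48 ± 0.06, edgeR adjusted p = 7.67e-05). POLE, the catalytic subunit of the leading-strand polymerase epsilon, was at 73.4, 70.3 and 69.6 against 62.8, 69.0 and 63.1 CPM (−0.13 ± 0.05, adjusted p = 0.077). Its partner POLE2 overlapped (0.00 ± 0.07). In the polymerase alpha and primase complex, which lays primers, POLA2 fell from 21.4, 24.3 and 21.9 to 18.7, 19.1 and 18.9 CPM (−0.26 ± 0.07, not called without control replicate 2), while POLA1 (0.05 ± 0.06) and PRIM1 (0.01 ± 0.09) overlapped. PRIM1 shares annotated exons with the very abundant NACA on the same strand, and POLA2 and the chromatin gene CHAF1B also share exons with a gene of their own strand, so all 3 are uncertain.

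LIG1 and FEN1, which act in the maturation of Okazaki fragments, both fell, while of 4 further genes of this step 1 fell, 1 rose and 2 did not pass. LIG1, the ligase that seals them (chromosome 19, 48115445 to 48170603, minus strand), was at 88.9, 82.5 and 86.3 CPM in controls and 57.9, 62.0 and 55.5 CPM with overexpression, and fell by 31.9% on average (−0.55 ± 0.06, edgeR adjusted p = 1.65e-05). FEN1, the flap endonuclease, was at 233, 247 and 242 CPM and at 195, 200.2 and 190.1 CPM (−0.30 ± 0.04). FEN1 is uncertain, since its exons overlap TMEM258 on the opposite strand and FADS2 on its own strand. The mean count of FADS2 went from 13854 to 8440 reads between the groups.

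Nucleotide supply held the gene that fell most. TK1, the thymidine kinase of the salvage pathway (chromosome 17, 78174075 to 78187233, minus strand), was at 113, 103 and 107 CPM in controls and 73.6, 71.7 and 59.5 CPM with overexpression, with overexpression replicate 3 lowest. It fell by 36.5% on average (−0.66 ± 0.07, edgeR adjusted p = 3.8e-05). TYMS, which makes thymidylate from deoxyuridylate, fell from 133, 136 and 134 to 114, 116 and 114 CPM (−0.23 ± 0.04), and its reads may be shared with ENOSF1 on the opposite strand. RRM2, the S-phase subunit of ribonucleotide reductase, fell from 138, 137 and 140.0 to 114, 116 and 114 CPM (−0.27 ± 0.04), with spreads of 1.66 and 1.21 CPM (SD). RRM1, the large subunit of the same enzyme, was lower in each overexpression library but did not pass, at 164, 170.2 and 168 against 157, 151 and 158 CPM (−0.11 ± 0.04, adjusted p = 0.063). DUT, which removes dUTP, overlapped (0.05 ± 0.07), with control replicate 1 lowest at 61.5 CPM and the other 5 libraries at 70.5 to 73.5 CPM.

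**Figure D5:**
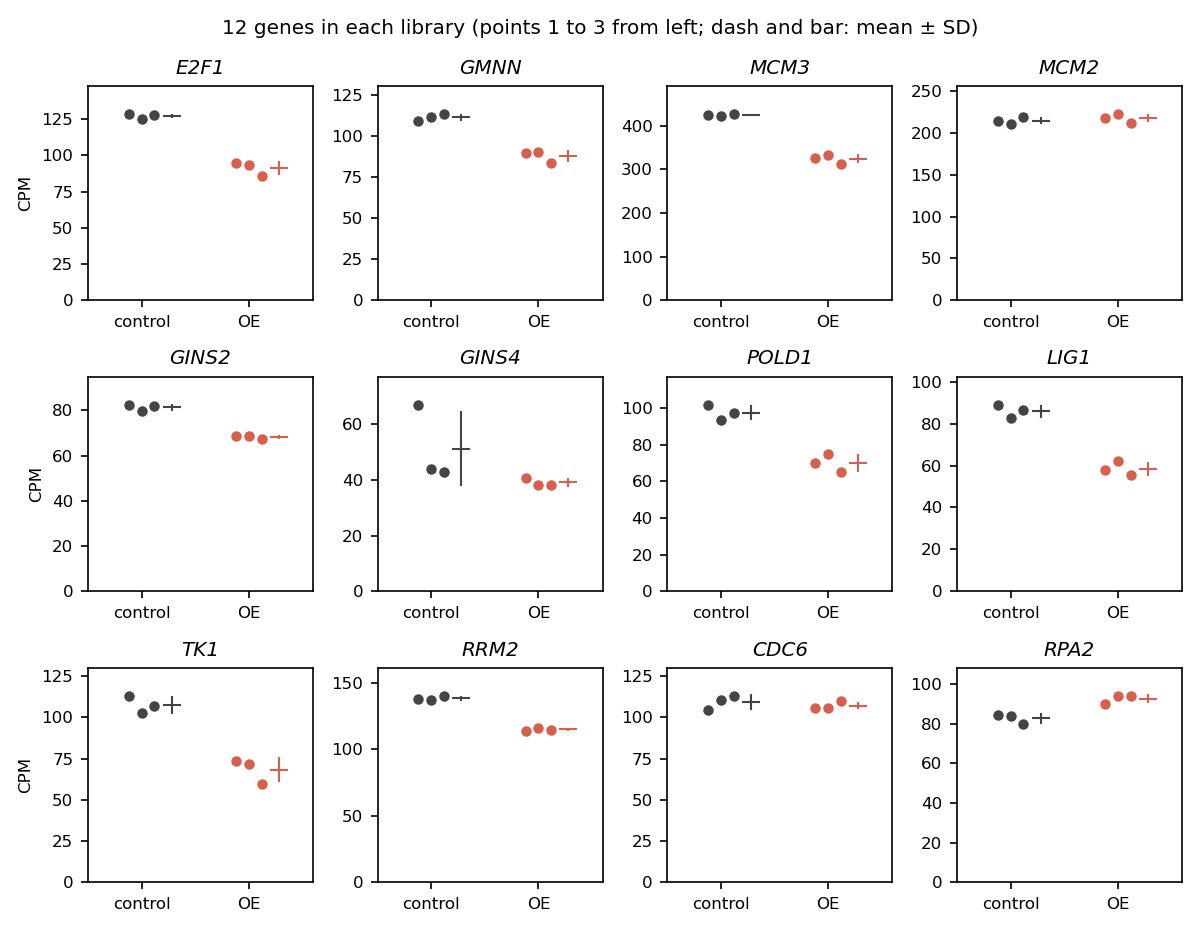
CPM of 12 genes in each library, with points for replicates 1 to 3 from left to right and the mean ± SD beside them, on axes that start at 0. E2F1, GMNN, MCM3, GINS2, POLD1, LIG1, TK1 and RRM2 show 3 overexpression libraries below 3 controls, MCM2 and CDC6 overlap, RPA2 lies above, and in GINS4 control replicate 1 lies apart.

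Of the 4 genes for chromatin on new DNA only UHRF1, which recruits the maintenance DNA methyltransferase, fell, from 72.3, 76.4 and 78.2 to 65.7, 63.3 and 66.2 CPM (−0.22 ± 0.05, edgeR adjusted p = 0.0051). SLBP, which binds the stem-loop of replication-dependent histone mRNAs, was higher in each overexpression library without passing, at 189, 199.6 and 199.9 against 212, 209 and 210.3 CPM (0.10 ± 0.04, adjusted p = 0.068). CHAF1A, the large subunit of the histone chaperone CAF-1, which is uncertain because it overlaps UBXN6, was at 90.3 ± 4.78 and 90.4 ± 0.642 CPM (SD, n = 3 each; 0.00 ± 0.05). CHAF1B, its partner, overlapped as well (−0.16 ± 0.08).

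Other genes of the pathway, listed by role, gave 9 falls and 7 rises among 45 tested, with a median log2 fold change of 0.00. Among the 52 there were 23 falls and 1 rise. Of the 45, 20% were called lower, which is near the share of all genes tested (19.2% lower and 18.5% higher). Without control replicate 1 and overexpression replicate 3 the falls numbered 14, and 19.5% of all genes were called lower. No test compared these lists. ASF1B, a histone chaperone that hands histones to CAF-1, fell from 76.1 ± 2.67 to 51.9 ± 3.62 CPM (SD, n = 3 each; −0.55 ± 0.06). ORC5, a subunit of the origin recognition complex, rose from 42.6 ± 0.894 to 64.5 ± 3.91 CPM (0.60 ± 0.06), and POLE3, a small histone-fold subunit of polymerase epsilon, from 129 ± 2.56 to 157 ± 5.36 CPM (0.28 ± 0.04). Of the 6 further genes of origin recognition and licensing 3 rose and 0 fell. Of 7 further chromatin genes 4 fell and 0 rose.

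Among 14 partners of the E2F factors, DP subunits, RB-family proteins and members of the DREAM complex, 5 fell and 2 rose (median −0.06). Of the 14, 35.7% were thus called lower, beside 19.2% of all genes tested, and 1 to 3 fell when any 1 library was left out. MYBL2, which drives late S and G2 genes and is itself known as an E2F target, fell from 257, 247 and 255 to 215, 212 and 194 CPM (−0.29 ± 0.05, edgeR adjusted p = 0.00051). RBL2, the RB-family protein p130, was called lower with overlapping libraries (31.0, 41.3 and 39.5 against 27.2, 27.1 and 32.4 CPM, −0.36 ± 0.10). LIN9, a core DREAM subunit, rose from 24.9, 30.8 and 29.2 to 36.6, 36.6 and 40.6 CPM (0.42 ± 0.08). E2F6, a repressor, rose from 19.7, 20.1 and 24.6 to 26.6, 27.0 and 27.9 CPM (0.34 ± 0.08). Of 25 mitotic genes 17 (68%) were called lower and 0 higher (median −0.22), and TOP2A (−0.43 ± 0.04) and KIF20A (−0.43 ± 0.05) had the smallest p. The difference between mitotic and replication genes was not tested.

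The genes that fell had a higher median content of G and C than those that did not pass. In the longest coding transcript of GENCODE 29, the median GC content was 51.6% for the 23 genes that fell, 45.5% for the 28 that did not pass and 48.1% for the 9174 genes of at least 10 CPM with such a transcript. Across the 52 genes, which are not independent and share their libraries, Pearson's r between GC content and log2 fold change was −0.46 (Spearman's rho −0.37), beside −0.25 (rho −0.26) across those 9174 genes. GGAC, the core of the sequence at which m6A is often placed, occurred at a median of 4.84 per kb in the genes that fell and 3.41 per kb in those that did not pass, against 3.58 per kb across the 9174. GC content also sets how often GGAC occurs, and median transcript lengths were 3208 and 3334 bases. The part of base composition in these fold changes was not tested.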

How the data were processed

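Polyadenylated RNA of 6 libraries was sequenced as 150 nt paired-end reads with a strand-marking kit, from 1 μg of total RNA each, per the labels' protocols. The submitters' processing notes name HISAT2, DESeq2 and GRCh38. How reads were assigned to genes, with which strand setting and gene models, is not known from the labels, and overlapping genes are uncertain for that reason. The authors deposited raw read counts for 32943 genes and FPKM, rounded to 2 decimals, for 32477. FPKM, scaled by a total that does not follow the gene counts, served to compare levels between genes and as an alternative. Gene counts as a share of that total, relative to control replicate 1, were 1.04 and 1.05 in the other controls and 1.06 to 1.07 with overexpression.

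Libraries were grouped by title. Nothing in the labels says that replicates were separate cultures. The p-values then measure only the spread among libraries, which may be technical. The counts went into edgeR 4.0.16 under R 4.3.3 (filterByExpr at min.count 10 and min.total.count 15, TMM, quasi-likelihood F test, Benjamini-Hochberg adjusted p under 0.05, no fold limit), after a check on simulated counts. Each standard error is the absolute log2 fold change over the square root of F. DESeq2 1.42.0, limma 3.58.1 and other filters and scalings were alternatives. The genes, lists and tests were chosen with earlier results of these data known. All 52 genes are named, and of every other list the 2 with the smallest p in each direction or, for markers, the 2 most abundant. A gene that this rule names is not reported here. Other genes, such as overlapping ones, were named after their values were seen. Positions are from GENCODE 29, which matched all 52 by Ensembl ID. Of the 52, 23 share exon sequence with another gene and 19 with a gene of the opposite strand. Named pseudogene copies of 4 held at most 0.506% of their gene's counts.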

Additional observations from a re-analysis of the deposited data

How the results depend on the processing

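Of the 24 genes called, 12 kept their call in all 18 refits: E2F1, CCNE1, GMNN, MCM3, CDC45, GINS2, POLD1, FEN1, LIG1, TK1, TYMS and RRM2. All refits used the deposited assignment of reads to genes, so GINS2, FEN1 and TYMS stay uncertain for their overlaps with other genes. Of the 28 not called, 16 were called in none of them, and no gene that was called changed sign. When 1 library was left out, the number of replication genes that fell was 18 to 22 and the number that rose 0 to 2. The median log2 fold change was then −0.17 to −0.14, and 15.5 to 17.3% of all genes were called lower and 14.8 to 16.5% higher. With limma on log2(FPKM + 1) 12 fell and 3 rose (median −0.085), and with log2(FPKM + 0.1) 12 and 3 (median −0.10). Of all genes, 13.8% and 13.9% were called lower in these fits, and 19.2% and 19.4% higher. CDK2, MCM5 and UHRF1 lost their call in both FPKM fits and in no other refit. At a fold of at least 1.5 the counts were 1 and 0 (TK1), beside 7.14% and 2.29% of all genes. At adjusted p under 0.01 the counts were 15 and 0, beside 12.4% and 11.8% of all genes. Upper quartile scaling gave 0 rises, beside 30 falls. It also moved the median of all genes to −0.05, with 22.3% of them called lower and 14.5% higher. No low-count filter gave 2 rises, with 10.2% of all genes called lower and 11.4% higher. With DESeq2 21 fell and 1 rose, with 16.9% of all genes called lower and 17.2% higher. Calls gained by leaving out 1 library, beside those of E2F8 and MCM7, were MCM10 without control replicate 2 (0.24, edgeR adjusted p = 0.0355), MCM8 without control replicate 3 (−0.32, 0.0485), RFC5 without control replicate 1 (−0.18, 0.0418), POLE without overexpression replicate 2 (−0.17, 0.0395) and RRM1 without overexpression replicate 3 (−0.12, 0.0393).

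Of the further pathway genes 7 to 10 fell when 1 library was left out and 14 without control replicate 1 and overexpression replicate 3, and at a fold of at least 1.5 0 fell and 1 rose. Of the E2F and RB partners 1 to 3 fell when 1 library was left out, 3 without the low-count filter, 2 with DESeq2, 4 without control replicate 1 and overexpression replicate 3, 1 with each FPKM fit and 1 at adjusted p under 0.01. At a fold of at least 1.5 0 of them fell and 0 rose, and 0 mitotic genes fell. The shares of all genes called under each of these settings are those given above. Without control replicate 1 and overexpression replicate 3 the difference in the log2 ratio was 0.24 for CDT1 over GMNN, −0.28 for E2F1 over E2F3 and 0.018 for CCNE1 over CCNE2. With 1 library left out these were 0.13 to 0.21, −0.57 to −0.34 and −0.31 to −0.07. The cause was not tested for any of these. With the replicate number as a block 22 genes fell and 1 rose, with 19.8% of all genes called lower and 18.8% higher. Deviations of same-numbered libraries correlated at 0.0855, −0.0383 and 0.0777, so the numbers were not taken to pair them. Control replicates 1 and 3 each correlated best with the overexpression library of their own number. Control replicate 2 correlated best with overexpression replicate 3 (0.0788).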
